A study of Mus musculus with 4 samples.

Results

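Semaphorins and plexins are a family of ligands and receptors known from axon guidance and also carried by blood cells. The genes described here are Sema7a, Sema4a, Sema4b, Sema4c, Sema4d, Plxnc1, Plxnb2, Plxnd1, Plxna1 and Plxdc1, and each was read through every gene probe that carries its symbol in the array files. That gave 12 probes out of 55681, for 10 genes out of 36310 names. Plxnc1 and Plxnd1 had 2 probes each and the other 8 genes had 1. The genes were selected on their family with the log2 differences between these same 4 arrays known, including those of Sema7a and Plxdc1, so their differences between conditions are a description and not a test. Plxdc1 shares a domain name with the plexins but is not one of the receptors, so the label fits 9 of the 10 genes.

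RNA came from 32D-EpoR cells, a mouse myeloid progenitor line with an added erythropoietin receptor, all held in RPMI medium with 10% fetal bovine serum and with the WEHI medium withdrawn. One group then received erythropoietin (Epo) at 10 U/ml and the other received none, with 2 arrays in each group. The design text describes 2 experiments on cells of different passages. The lengths of the withdrawal and of the Epo treatment are not given in the sources used here, and both groups carry the added receptor and lack the medium that normally feeds the line.

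Semaphorins are secreted, membrane-spanning or lipid-anchored proteins that share a sema domain. Plexins are their transmembrane receptors. The inner part of a plexin acts on small GTPases of the Ras and Rap type and so changes the cytoskeleton and adhesion. Neuropilins serve as co-receptors for the secreted semaphorins, and some semaphorins also use integrins or other surface proteins. In blood and immune cells the family is known for contact signals between cells and for effects on migration.

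The RNA was labelled from the poly(A) tail, so the stretch that each probe reads matters to its value. The last 30 bases of the 60-base probes are shown for the member that rose, the member that fell and both genes with a pair of probes, 5′ to 3′, with AATAAA or ATTAAA, the hexamers of the polyadenylation signal, in capitals.
Sema7a: atgtaacatattactAATAAAcaagctatt
Plxdc1: gttcttgtaaccATTAAAaacaactagggg
Plxnc1, probe at base 6717: caaattagatgtgtgctgaagacaatcagt
Plxnc1, probe at base 4429: aagtgaagtcttactacaaagcaatcaggg
Plxnd1, probe at base 6847: tttatAATAAAagcctgccgggaaaaccta
Plxnd1, probe at base 6361: tgtctgtgtccctcatccagagggggcctt
The base is the start position of the probe in its target transcript as the array files list it. In the mouse build mm9, which the files use, the Sema7a probe lies at chr9:57810607-57810666 on the plus strand and the Plxdc1 probe at chr11:97784970-97785029 on the minus strand. The Plxnc1 probes lie at chr10:94253879-94253938 and chr10:94257387-94257446, and those of Plxnd1 at chr6:115904829-115904888 and chr6:115905315-115905374, all on the minus strand. A hexamer was found, on the probe strand alone, in 4 of the 12 probes (33.3%), the fourth being that of Sema4d, and in 13.7% of all gene probes. Whether each probe lies in coding or untranslated sequence was not analysed here. For Plxna1 the files list 33 of the 60 bases, at chr6:89266290-89266322.

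Of the 10 genes, 9 had signal well above background on the whole of 1 group or both and entered the fit across all genes. Plxnb2, the receptor known for Sema4c, was not well above background on any of the 4 arrays, at 2.67 and 4.14 without Epo and 3.19 and 2.90 with Epo on the log2 scale, and was not tested. Plxdc1 entered through the group without Epo alone. In limma's fit over 17555 genes at an adjusted p of 0.05, 1 of the 9 rose and 1 fell, against 13.1% of all genes that rose and 14.3% that fell (27.4% in either direction). Members were higher with Epo in 3 cases and lower in 6, and their median log2 difference was -0.27, against -0.062 over all genes tested. Nothing particular to the family is read from these counts. Without the filter on dim probes limma called none of the 36310 genes (2528 were higher and 4620 lower at an unadjusted p under 0.05), so every call given here rests on that filter. The arrays of both groups did not overlap for 4 of the 9 members (44.4%), 1 with Epo higher (Sema7a) and 3 with Epo lower. The background was 68.8% of all genes tested, 30.4% higher and 38.4% lower.

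**Figure D1:**
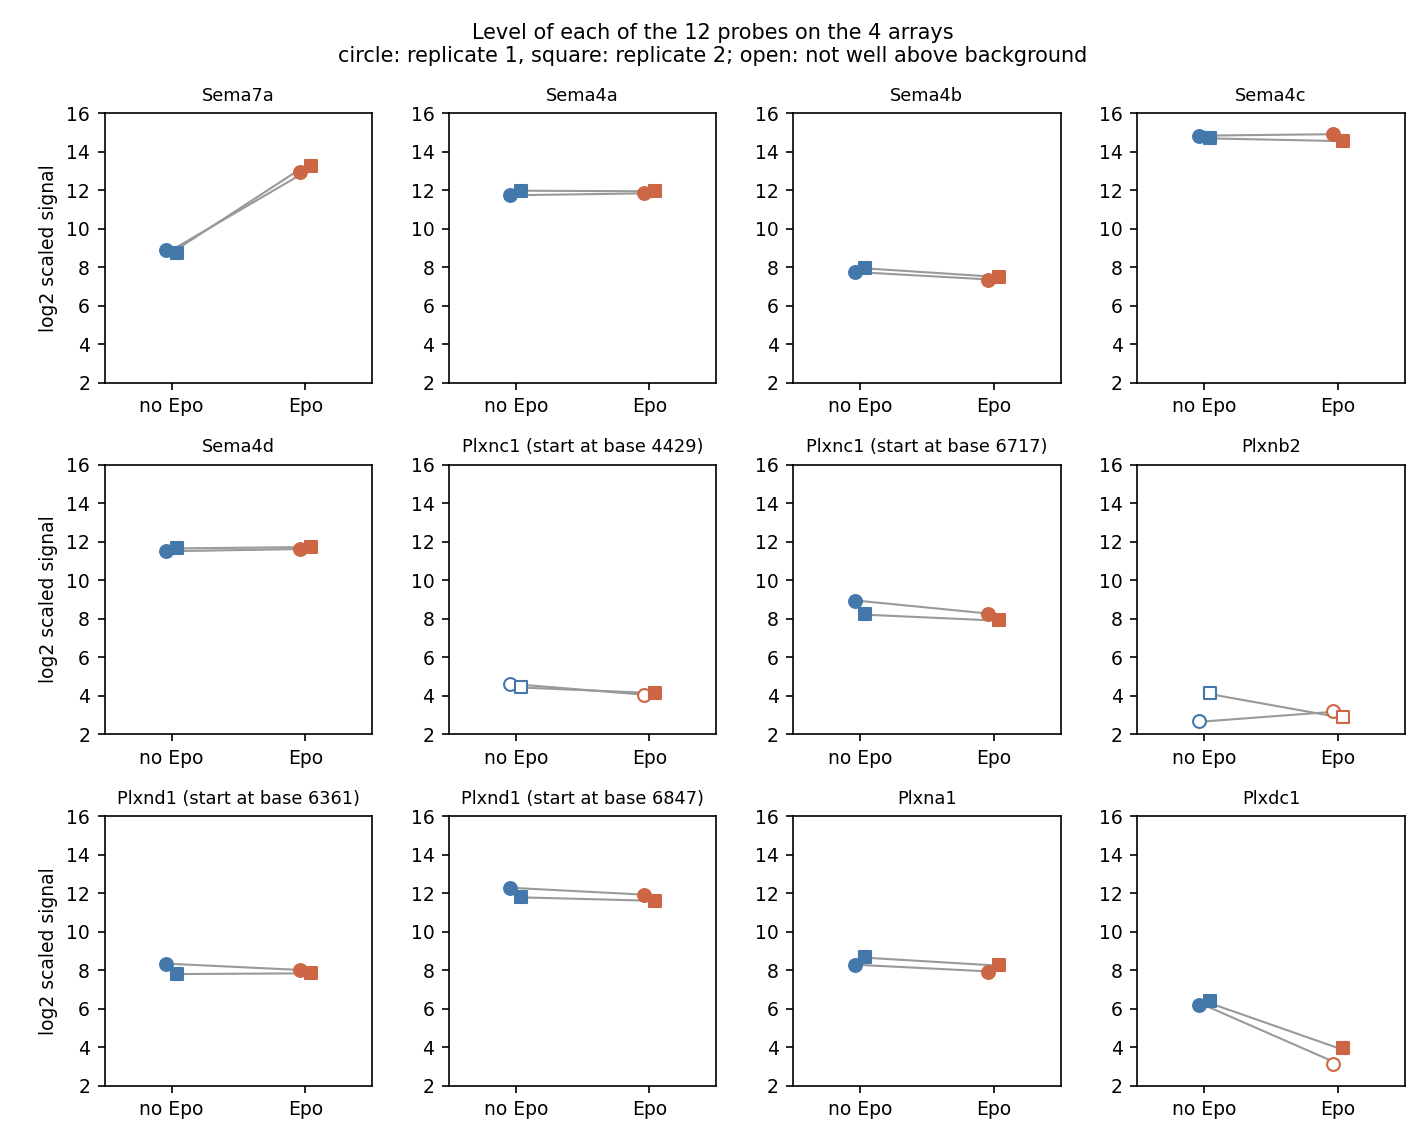
Log2 scaled signal of each of the 12 probes (vertical axes) on the 2 arrays without Epo (blue) and the 2 with Epo (orange). Circles are replicate 1 and squares replicate 2, grey lines join equal replicate numbers, and open symbols were not well above background. Levels of different probes are not comparable. Sema7a climbs from 8.89 and 8.76 to 12.95 and 13.27, and Plxdc1 drops towards background. The other probes change by less than 1 log2 unit along each grey line or lie at background.

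Among the ligands, Sema7a stood out. It encodes a lipid-anchored semaphorin whose known receptors are Plxnc1 and integrins that contain Itgb1. Its probe had a deposited processed intensity of 346 and 354 in the cells left without Epo, and of 8981 and 14656 after Epo. Scaled by the 75th percentile of its array, the signal in log2 units averaged 8.82 ± 0.094 (SD, n = 2) in untreated cells and 13.11 ± 0.22 (SD, n = 2) in treated cells, from single values of 8.89, 8.76, 12.95 and 13.27. Both arrays with Epo were far above both without, and all 4 were well above background. Sema7a thus rose by 4.29 ± 0.16 (SE) on the log2 scale, a 19.5-fold difference with a 95% interval of 14.6-fold to 26.1-fold. The rise was 4.06 for replicate 1 and 4.51 for replicate 2. It was the 12th largest rise (rank 12) of the 17555 genes, with a limma adjusted p of 0.0031, given as the fit's call because this gene was picked for its rise. With 1 array left out the difference ran from 4.13 to 4.45. In RNA from whole cultures, more cells with a transcript and more of it in each cell cannot be told apart, which holds for every value here.

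The 5 genes whose values over the 4 arrays lay nearest to those of Sema7a, each measured from its own mean without Epo, were Osm, Hbegf, Slfn2, Rasgrp3 and Maff. Their Euclidean distances in log2 units were 0.36, 0.44, 0.49, 0.50 and 0.51. Osm encodes oncostatin M, a cytokine, and Hbegf a growth factor of the EGF family. With 4 arrays in 2 groups this likeness mostly restates the size of the rise, 4.09, 4.50, 4.60, 4.50 and 4.21 for these genes in that order.

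The membrane-spanning semaphorins Sema4a, Sema4c and Sema4d differed little between the groups. Sema4a, a ligand of plexins that also acts on T cells, measured 11.75 and 11.98 without Epo and 11.85 and 11.95 with Epo. Its arrays overlapped, and the log2 difference was 0.033 ± 0.14 (SE), with a 95% interval of -0.33 to 0.40. Sema4d, which binds Plxnb1 and Cd72, gave 11.51 and 11.65 without Epo and 11.62 and 11.72 with it. The groups overlapped here too, with a difference of 0.093 ± 0.12 (SE) and an interval of -0.23 to 0.42. For Sema4c the levels were 14.84 and 14.70 without Epo and 14.92 and 14.56 with it. The 2 arrays without Epo lay between those with Epo, and the difference was -0.034 ± 0.17 (SE), interval -0.48 to 0.41. For these 3 genes the intervals leave out a change of the size seen for Sema7a in either direction.

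Sema4b was lower with Epo by a small amount. Its signal was 7.74 and 7.96 without Epo and 7.36 and 7.52 with Epo, so the groups did not overlap. The difference was -0.42 ± 0.14 (SE), interval -0.79 to -0.043, and it was close in both replicate numbers (-0.39 and -0.45). It did not pass the threshold (limma adjusted p = 0.093) but did with the replicate number as a block (adjusted p = 0.032).

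**Figure D2:**
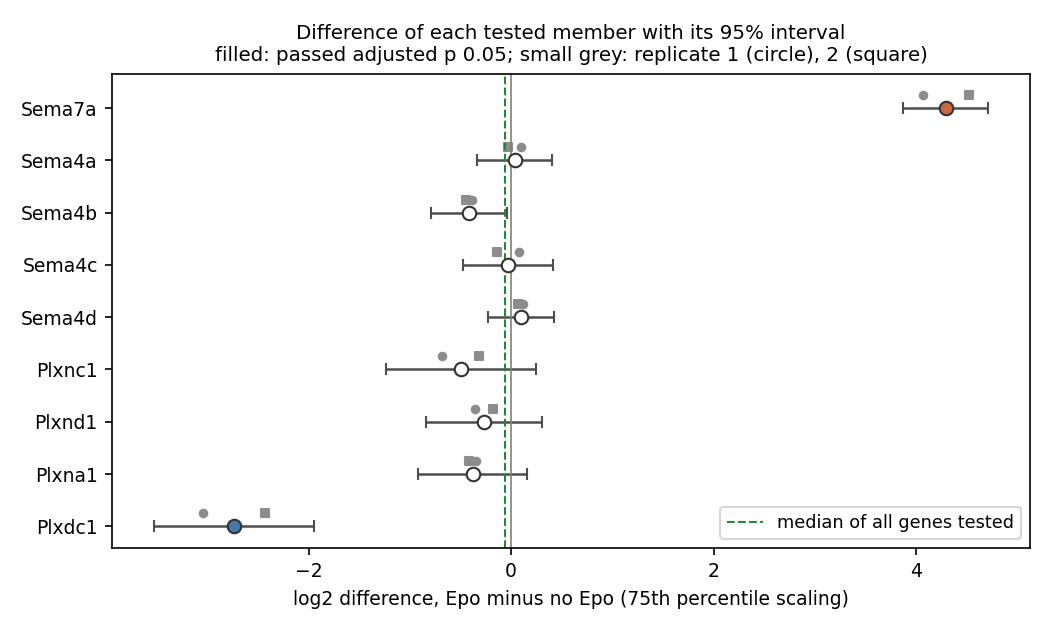
Log2 difference, Epo minus no Epo, after 75th percentile scaling (horizontal axis) for the 9 tested members. Large points are the estimates with 95% intervals, filled where the adjusted p passed 0.05, and small grey marks are the differences of replicate 1 (circle) and replicate 2 (square). The dashed line is the median of all genes, -0.062. Sema7a at 4.29 and Plxdc1 at -2.74 lie far from the other 7, which range from -0.50 to 0.093.

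None of the 3 tested plexins rose with percentile scaling, and all 3 differences were below 0. Without scaling all 3 lay above 0, but below the median of 0.68 over all genes in that reading. Plxnc1, the plexin receptor of Sema7a, was read by the probe at base 6717 at 8.93 and 8.22 without Epo and 8.24 and 7.91 with Epo. The groups overlapped by a narrow margin, since replicate 2 without Epo lay just under replicate 1 with Epo. The difference was -0.50 ± 0.28 (SE), interval -1.24 to 0.24, with an adjusted p of 0.24, and it ran from -0.85 to -0.15 with 1 array left out. The probe at base 4429 was well above background on 1 of the 4 arrays, replicate 2 with Epo, and was left out of the fit. It measured 4.60 and 4.44 without Epo and 4.03 and 4.15 with Epo.

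Plxnd1, the receptor of the secreted semaphorin Sema3e and known from blood vessels, had 2 probes above background on all arrays. The probe at base 6847 gave 12.26 and 11.79 without Epo and 11.91 and 11.61 with Epo, a difference of -0.27 ± 0.22 (SE) with an interval of -0.84 to 0.30. With 1 array left out it ran from -0.51 to -0.030. The probe at base 6361 gave 8.32 and 7.79 without Epo and 7.997 and 7.83 with Epo, a difference of -0.14 ± 0.22 (SE) in the fit over all 23735 kept probes. Both probes had overlapping groups, and neither passed (adjusted p = 0.40 and 0.65), against 25.9% of all kept probes called in either direction.

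Plxna1, which pairs with neuropilins as a receptor of secreted semaphorins, measured 8.27 and 8.66 without Epo and 7.92 and 8.25 with Epo. Every array with Epo was below those without, although by a narrow margin at the closest pair. The difference was -0.38 ± 0.20 (SE), interval -0.91 to 0.15, adjusted p = 0.22, and it ran from -0.58 to -0.18 with 1 array left out. With the replicate number as a block it passed (adjusted p = 0.037), since the differences of both replicate numbers were alike, at -0.35 and -0.41. With the block, 3 members fell (Plxdc1, Sema4b and Plxna1) and 1 rose (Sema7a), against 23.2% of all genes that fell and 19.9% that rose in that fit.

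Plxdc1 fell. It encodes a transmembrane protein with a plexin-like domain, also called tumor endothelial marker, that does not belong to the plexin receptors. The processed intensity was 53.0 and 68.4 without Epo and 10.0 and 23.0 with Epo, or 6.18 and 6.39 against 3.14 and 3.96 as log2 scaled signal. Both arrays without Epo were well above background and both with Epo lay lower, replicate 1 not well above background. The log2 difference was -2.74 ± 0.30 (SE), 6.66-fold lower, with an interval of -3.53 to -1.95 and a limma adjusted p of 0.0083 that again only gives the fit's call. The size rests in part on background. With dim values set to the lowest value well above background on their array, an alternative added after seeing the data, the difference was -2.21, 4.61-fold lower. With the normexp background correction it was -1.32. By the measure used for Sema7a, the nearest genes were Celsr2, Ifit1, Ncald, Rhob and Apbb2, with differences of -2.55, -2.60, -3.06, -2.57 and -2.51. This likeness too mostly restates the size of the fall, and since replicate 1 of Plxdc1 with Epo was not well above background, no order is read among them.

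The size of these differences, and for some members not called their sign, depends on the scaling by array percentiles. When no scaling was applied, the median difference over all genes was 0.68 towards Epo. Read without scaling, Sema7a differed by 5.04 and Plxdc1 by -1.99, while Sema4b, Sema4c, Plxnc1, Plxnd1 and Plxna1 turned to values between 0.25 and 0.71. In that reading 3 members rose (Sema7a, Sema4a and Sema4d) and 1 fell (Plxdc1), against 46.9% of all genes that rose and 2.07% that fell. Relative to the shift of 0.68, the same values are 4.35 for Sema7a, -2.67 for Plxdc1 and -0.44 to 0.15 for the other 7.

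**Figure D3:**
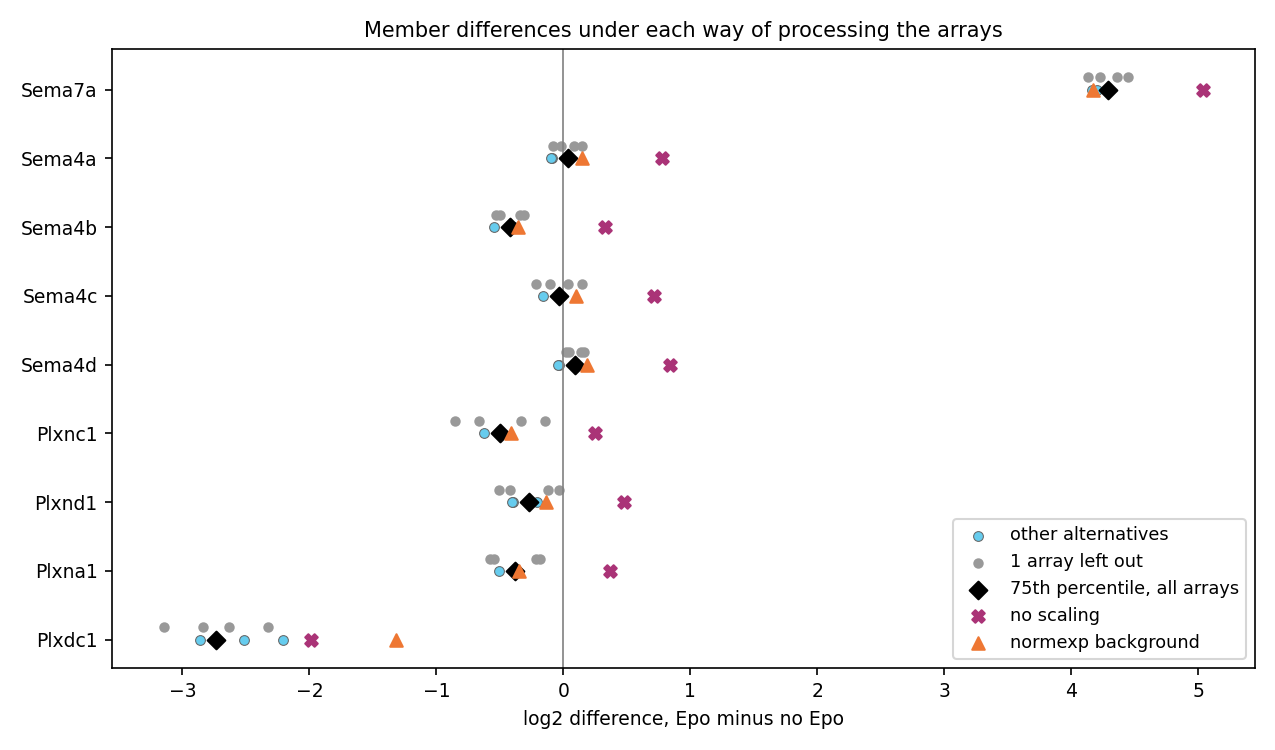
Log2 difference, Epo minus no Epo (horizontal axis), of each tested member under each way of processing: black diamonds, 75th percentile scaling with all arrays; grey, 1 array left out; crosses, no scaling; triangles, normexp background; blue, the other alternatives. Sema7a stays between 4.13 and 5.04 and Plxdc1 between -3.14 and -1.32, while the other 7 lie on both sides of 0.

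The rest of the pathway was read from lists of 74 other genes. The counts of each list stand against 13.1% of all genes that rose and 14.3% that fell. Of 15 further semaphorin genes, 4 were well above background on all 4 arrays and tested. Sema6c, a membrane-spanning semaphorin, fell by 0.83 ± 0.11 (SE) in log2 units, with a limma adjusted p of 0.013. Without scaling it lay at -0.082, against a median of 0.68 over all genes. It did not pass when either array with Epo was left out (adjusted p 0.052 without replicate 1 and 0.062 without replicate 2). None of the 4 rose, also at an unadjusted p under 0.05, where 2 were lower, and their median was -0.33. Of 8 other plexins, neuropilins and Plxdc2, the relative of Plxdc1, only Plxdc2 was tested. It differed by -0.014 ± 0.15 (SE). Nrp1, Nrp2, Plxna2, Plxna4, Plxnb1 and Plxnb3 were not well above background on any array, and Plxna3 was on 1. Together, 9 of the 20 semaphorin genes listed were well above background on all 4 arrays, the 5 members among them.

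Of 9 receptors and co-receptors outside the plexins, 4 were tested, 0 rose and 2 fell (1 was higher and 3 lower at an unadjusted p under 0.05), with a median of -0.63. Itgb1, the integrin chain of Sema7a receptors and named here after its values were seen, differed by 0.40 ± 0.11 (SE). Its limma adjusted p was 0.061, and 0.037 with the replicate block, where 1 of the 4 rose and 3 fell, against the 19.9% and 23.2% of all genes in that fit. Itgb1 also passed with normexp (0.50), but not with the percentile over detected probes (0.28) or quantile normalization (0.30). Without scaling it lay at 1.15 and passed. In that reading the median of all genes was 0.68 and 46.9% of them rose, so no weight is put on it. Its partner Itga1 was not well above background on any array. Kdr, a VEGF receptor that can join plexin complexes, fell by 1.26 ± 0.13 (SE), adjusted p 0.0078, and Cd72, a receptor of Sema4d, fell by 0.71 ± 0.15 (SE), adjusted p 0.030. Without scaling neither passed, with Kdr at -0.52 (adjusted p 0.16) and Cd72 at 0.041, against a median of 0.68 over all genes. Cd72 also did not pass with normexp (-0.43, adjusted p 0.14), nor without no Epo replicate 1, Epo replicate 1 or Epo replicate 2 (adjusted p 0.075, 0.10 and 0.11).

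Among 4 proteases that cut semaphorins, 3 were tested, 1 rose and 0 fell, against 13.1% and 14.3% of all genes. Furin, which processes secreted semaphorins, rose by 1.01 ± 0.12 (SE), 2.01-fold, with a limma adjusted p of 0.0090. Adam10 and Adam17, which can shed membrane proteins, are the other 2 tested and differed by -0.20 and -0.34 without passing. With the replicate block Adam17 passed (adjusted p 0.047), and with 1 array left out it ran from -0.54 to -0.15. The median of the 3 genes was -0.20.

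Of 17 GTPases and their regulators linked to plexins, 10 were tested, 0 rose and 2 fell (2 were higher and 3 lower at an unadjusted p under 0.05), with a median of 0.055. Arhgef11, an exchange factor for RhoA that binds plexins of the B type, fell by 0.84 ± 0.13 (SE), and Rnd1, a GTPase that binds the inner part of plexins, fell by 0.64 ± 0.12 (SE). Without scaling they lay at -0.097 and 0.105, against a median of 0.68 over all genes. Rnd1 was -0.21 with the mean of its kept probes (adjusted p 0.54) and did not pass with any 1 of the 4 arrays left out (adjusted p 0.062 to 0.13). Arhgef11 did not pass without Epo replicate 2 (adjusted p 0.069). With the replicate block 2 of the 10 rose and 3 fell, against 19.9% and 23.2% of all genes in that fit. Of 21 effectors and cytoskeletal genes, 15 were tested, 1 rose and 2 fell, against 13.1% and 14.3% of all genes, with a median of -0.10. At an unadjusted p under 0.05, 1 was higher and 6 were lower. Rock2, a kinase downstream of RhoA, rose by 0.64 ± 0.13 (SE). Mical1, an enzyme that takes actin filaments apart after plexin signals, fell by 0.54 ± 0.11 (SE), and Limk2, a kinase of cofilin, fell by 0.53 ± 0.12 (SE). Without scaling they lay at 0.21 and 0.22, above 0 but below the median of 0.68 over all genes. Neither passed with any 1 of the 4 arrays left out (adjusted p 0.076 to 0.19), and Limk2 did not with quantile normalization (adjusted p 0.060). Rock2 did not pass with the percentile over detected probes (0.52, adjusted p 0.052), and of the fits with 1 array left out it passed only without no Epo replicate 2 (adjusted p 0.047, against 0.082 to 0.13). With the replicate block 6 of the 15 fell and 1 rose, against 23.2% and 19.9% of all genes in that fit. The number that fell was 4 with normexp, 6 with the percentile over detected probes and 5 with quantile normalization. In these fits 3631, 3651 and 2306 of all 17555 genes fell. It was 2 with the mean of the kept probes and 0 without scaling, where 2526 and 364 of all genes fell. The limma adjusted p of these 5 genes ran from 0.015 for Arhgef11 to 0.038 for Limk2.

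**Figure D4:**
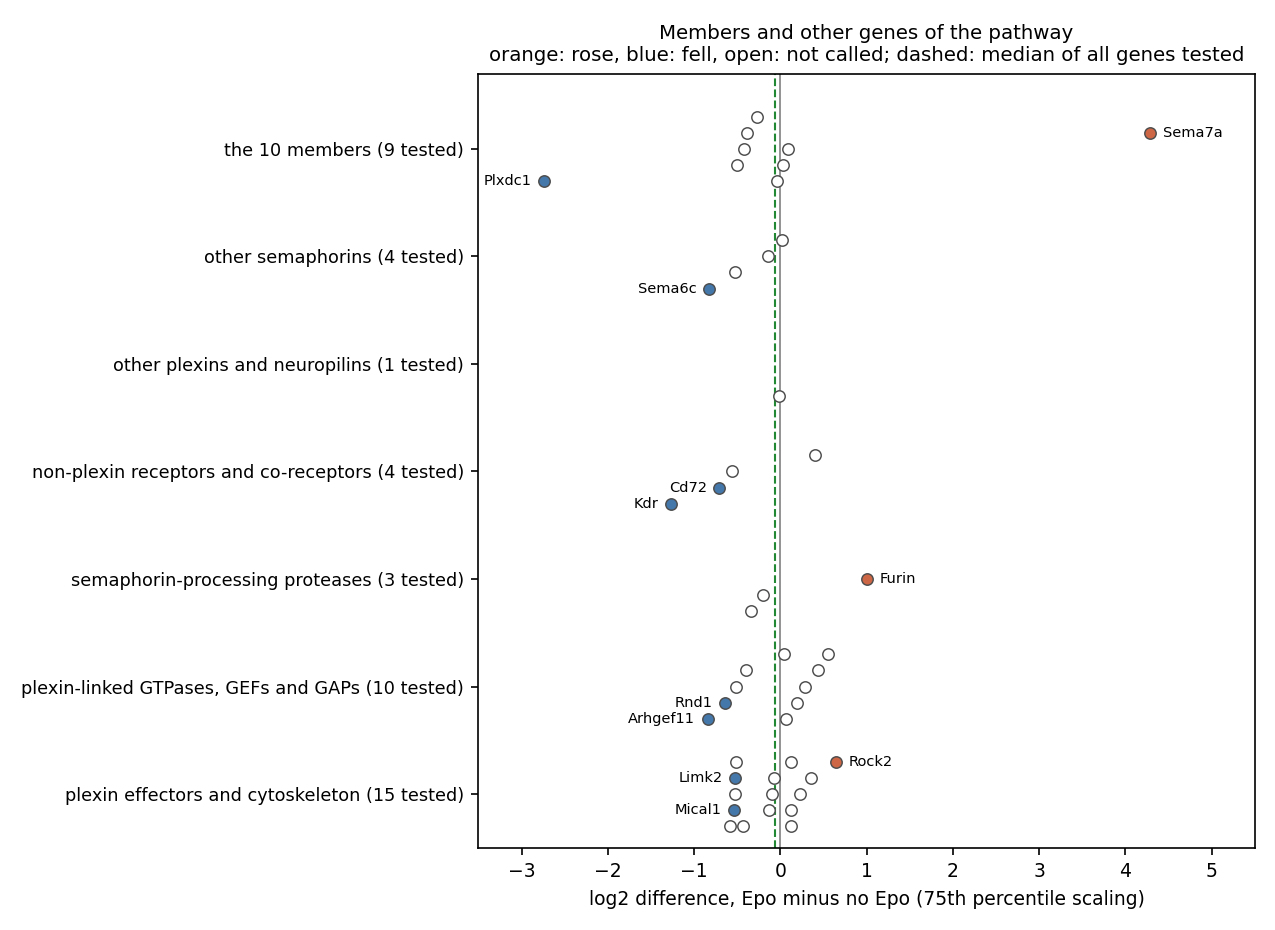
Log2 difference, Epo minus no Epo, after 75th percentile scaling (horizontal axis) for the tested members and for the tested genes of the 6 lists (rows). Orange points rose, blue points fell and open points did not pass the adjusted p of 0.05; the dashed line is the median of all genes, and vertical offsets within a row only separate points. Outside the members, the called genes lie between -1.26 (Kdr) and 1.01 (Furin).

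The labelled cell type was checked against marker lists. Of 10 myeloid progenitor markers, 8 were well above background on all 4 arrays, among them Mpo, Elane, Prtn3 and Ctsg, and Kit was on none. Their summed scaled intensity was 151531 and 161049 without Epo and 127884 and 143653 with Epo. Of the 9 tested, 0 rose and 1 fell, against 13.1% and 14.3% of all genes. The 1 that fell was Cebpa, by 0.74 (limma adjusted p 0.027). Without scaling Cebpa lay at 0.0097 and did not pass (limma adjusted p 0.98), against a median of 0.68 over all genes. With the replicate block 4 fell, against 23.2% of all genes in that fit. Of 8 endothelial markers, 6 were well above background on all 4 arrays and Tek and Emcn on none. The summed scaled intensity of the endothelial list was 9116 and 9398 without Epo and 8090 and 9087 with Epo. For 8 macrophage markers it was 3732 and 3643 without Epo and 4521 and 4836 with Epo, with Mrc1 and C1qa not well above background on any array. Within that list Adgre1 rose by 1.03 and Csf1r fell by 0.79 (limma adjusted p 0.0089 and 0.014). Without scaling Adgre1 lay at 1.77 and passed, while Csf1r lay at -0.042 and did not (limma adjusted p 5.8e-07 and 0.92). The sums of 8 lymphoid markers were 1440 and 1224 without Epo and 691 and 722 with Epo. Of the 8, 2, Cd3e and Cd4, were well above background on all 4 arrays while the other 6 were on none. Cd3e fell by 1.14 and Cd4 by 0.81 (limma adjusted p 0.017 and 0.018). Without scaling they lay at -0.40 and -0.063, and neither passed (limma adjusted p 0.28 and 0.87). The 8 stromal markers gave 435 and 452 against 341 and 229, and the 8 neuronal markers 5141 and 6260 against 3729 and 4022. In each of these lists 2 of the 8 were well above background on all 4 arrays. They were Pdgfrb, which fell by 2.45 (limma adjusted p 0.0040), and Thy1, and Syp and Snap25. Without scaling Pdgfrb lay at -1.70 and passed (limma adjusted p 1.8e-06). Snap25 was the brightest neuronal marker, at 12.13 and 12.44 without Epo and 11.67 and 11.77 with Epo, and was not called (adjusted p 0.057). The sums include dim probes and can be carried by 1 gene. The part of these levels in the differences of Sema7a and Plxdc1 was not tested.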

How the data were processed

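Single-colour Agilent arrays of 4 samples, 2 without Epo and 2 with Epo, were labelled with Cy3 from 200 ng of total RNA. The intensity values that the authors deposited were, per the file headers, extracted from the scans with Feature Extraction 10.1.1.1 as processed signals with spatial and multiplicative detrending. Their percentiles differed between arrays. limma is named in the submitters' processing notes without a role. The number of arrays limits the precision of every value.

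From the processed intensity, log2 was taken and each array's 75th percentile over 59305 non-control spots removed, and the average percentile of the 4 arrays was put back. Those percentiles were 224 and 250 without Epo and 347 and 454 with Epo. Outlier spots took out 9 probes and 0 spots were saturated. A probe entered if both arrays of a group were well above background (23735 probes, 17555 genes), and the brightest such probe stood for its gene. File names were updated through the RefSeq gene table of GRCm38.p6 by accession (26409 probes), symbol (3859) or synonym (735), and 24669 kept their name. Probe sequences are from the array files.

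Epo minus no Epo was fitted by lmFit and eBayes of limma (version 3.58.1, under R 4.3.3). Two-sided p-values were adjusted by Benjamini and Hochberg across every gene tested, with a threshold of 0.05, on 2 residual and 4.57 total degrees of freedom. The script was tested on simulated data. Equal replicate numbers were read as the same experiment. Their deviations from the group means had a correlation of 0.386 taken over genes, whose values are not independent of each other. The replicate number as a block was one alternative, beside other backgrounds, scalings, filters, probe averaging and leaving out each array. The degrees of freedom above are those of the main fit. The block takes up part of them, so calls with the block rest on fewer. Without scaling, every tested member had the same SE (0.32), so that fit did not weigh the spread of each gene. The members and gene lists were chosen with earlier results of these data known. The rule for named genes took all members, the largest called changes of each list (up to 3 each way, or the 2 smallest p where none passed) and the 5 nearest profiles of Sema7a and Plxdc1. Itgb1, Itga1, Adam10, Adam17, the dim plexins and neuropilins, and the markers fall outside it and were named after their values were seen.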

Additional observations from a re-analysis of the deposited data

How the results depend on the processing

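Over 13 alternatives (12 for Plxdc1) the 9 tested members gave 96 values with the same direction and side of the threshold, 14 that changed sign, 4 that gained a call and 2 that lost one. Every sign change was of a member that was not called. With no scaling Sema4b, Sema4c, Plxnc1, Plxnd1 and Plxna1 lay at 0.33, 0.71, 0.25, 0.48 and 0.36. Sema4a and Sema4d lay at -0.092 and -0.032 with the percentile over detected probes and at -0.096 and -0.041 with quantile normalization. With 1 array left out Sema4a ran from -0.084 to 0.15 and Sema4c from -0.21 to 0.15, including values of -0.018 for Sema4a and 0.035 for Sema4c. Sema4c was 0.099 with the normexp background. The calls of Sema7a and Plxdc1 were lost without a filter on dim probes (adjusted p 0.108 and 0.112), where 36310 genes were tested. There limma called 0 of all genes in either direction, with 2528 higher and 4620 lower at an unadjusted p under 0.05, and so 0 members, with 1 higher and 1 lower at that p. The adjusted p of Sema7a otherwise reached 0.011 at most and that of Plxdc1 0.014.

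The number of members that rose was 3 with no scaling. The number that fell was 0 when probes had to be well above background on all 4 arrays, since Plxdc1 then was not tested (1 was lower at an unadjusted p under 0.05), and 3 with the replicate block. Of all genes, 8231 rose and 364 fell with no scaling, and 3497 rose and 4068 fell with the replicate block, against 2302 and 2502. With 1 array left out, 1 member rose and 1 fell in each case, and the genes that rose ran from 1098 to 2017 and those that fell from 1175 to 1946. Of 156 counts for the pathway lists, 111 stayed within 1.5 times and 45 did not. Probes near background, as for Plxdc1, Plxnb2 and the Plxnc1 probe at base 4429, limit what can be read.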
